A study of Mus musculus with 9 samples.

Results

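Platelet-derived growth factors (PDGF), vascular endothelial growth factors (VEGF), angiopoietins and the PDGF receptors were followed in mouse fibroblasts with persistent STAT3 activity. The set was 10 genes, Pdgfa, Pdgfb, Pdgfc, Pdgfra, Pdgfrb, Vegfa, Vegfb, Vegfc, Angpt1 and Angpt2, taken as every probeset whose single annotated symbol is one of them, which gave 21 of the 45037 probesets tested. RNA came from unmodified Balb/c-3T3 mouse fibroblasts (control), from the same cells with a stable pMvSrc plasmid, which carries the tyrosine kinase oncogene v-Src, and from such cells with a stable pRc/CMV-STAT3C plasmid, which carries STAT3-C, a constitutively active mutant of the transcription factor STAT3. All cells grew in DMEM with 10% bovine calf serum, and serum carries PDGF. Each line had 3 Affymetrix Mouse Genome arrays, 1 for each of 3 passages with pooled dishes, so the spread is between passages of 1 stable line and not between separate transfections, and line and transgene cannot be told apart. For the controls the sources used here name no empty vector. The question was which growth factor and receptor transcripts differed in v-Src cells, in STAT3-C cells, or between both.

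PDGF chains form dimers that bind receptor tyrosine kinases on mesenchymal cells. Dimers of A or C chains act mainly through the alpha receptor, encoded by Pdgfra, and dimers of B chains through both the alpha and the beta receptor, the latter encoded by Pdgfrb. Fibroblasts normally carry both receptors and divide in response to the ligands, whereas VEGF and angiopoietins act mainly on receptors of the vessel wall (Flt1, Kdr, Flt4 and Tek). VEGFA drives growth of blood vessels and VEGFC that of lymphatic vessels, and STAT3 is known to activate the VEGFA gene.

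Values are expression on the log2 scale after Robust Multichip Average (RMA), so a difference of 1 is a 2-fold difference. A probeset was called higher or lower with a Benjamini-Hochberg adjusted p under 0.05 over all 45037 probesets in limma and a fold of at least 1.5. Errors of log2 fold changes are limma standard errors (SE) over 3 arrays a line, with which an exact permutation test of 3 against 3 could not go below 0.1. The lower quartile of an array lay between 5.07 and 5.16, and values near or under it are near background. Levels were compared within a probeset only, because probesets differ in hybridization, apart from summed levels of markers, which are a rough check. No array stood apart: arrays of 1 line correlated at 0.990 to 0.995 (Pearson, over probesets). Of 10 fibroblast markers, 2 were called higher and 4 lower in v-Src cells, and 1 higher and 5 lower in STAT3-C cells. These are 60.0% of the list in each line, beside 19.9% of all genes in v-Src cells and 22.2% in STAT3-C cells. S100a4 (0.65 and 0.89) rose in both lines and Fn1 (1.13) in v-Src cells. Vim stayed between 13.2 and 13.4 on average, while Thy1 (-5.17 and -5.18), Lum (-3.17 and -3.51) and Col1a1 (-1.34 and -1.86) fell in both lines, Col3a1 in v-Src cells (-1.63), and Dcn (-2.24) and Col1a2 (-0.61) in STAT3-C cells. Of 8 endothelial markers 1 to 3 lay below the lower quartile of an array, among them Pecam1 (4.58 in control, 4.59 in v-Src and 4.84 in STAT3-C cells) and Vwf (4.25, 4.66 and 4.14), whereas Egfl7 (8.17, 8.19 and 8.43) and Eng (7.35, 7.54 and 7.98) lay above it. Of 6 leukocyte markers 2 lay below it, Ptprc (3.99, 4.10 and 4.36) and Itgam (4.44, 4.34 and 4.54), whereas Csf1r (7.49, 7.81 and 7.31) and Cd68 (6.56, 6.53 and 7.70) did not. Eng (0.63) and Cd68 (1.14) were called higher in STAT3-C cells, and the part of such markers in the results was not tested. Over the 9 arrays the summed level (log2) ranged from 15.5 to 15.96 for 10 fibroblast, 9.48 to 9.95 for 8 endothelial, 8.49 to 9.27 for 6 leukocyte and 9.38 to 10.05 for 4 epithelial markers. The epithelial sum was carried by Epcam at 1447899_x_at (9.37 in control, 9.71 in v-Src and 9.05 in STAT3-C cells). Cdh1 (4.33, 4.48 and 4.65) lay below the lower quartile. Of 4 Stat3 probesets, 1460700_at was called higher in v-Src (1.305, SE 0.14) and STAT3-C cells (0.72, SE 0.15), 1426587_a_at in v-Src cells alone (1.53, beside 0.24 in STAT3-C cells) and the others in neither. Neither Src probeset was called in any comparison, and whether these probes read v-Src was not tested.

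PDGF ligands were higher and PDGF receptors lower in both transfected lines at most of their probesets, and Pdgfb was called higher in v-Src cells at 1 of its 2 probesets and in STAT3-C cells at none. With v-Src, 18 of the 21 probesets were called, against 16.8% of all probesets. Of these, 8 were higher and 10 lower, where 8.75% and 8.10% of all probesets were. With STAT3-C, 14 of 21 were called against 18.3% of all, 5 higher (9.68% of all) and 9 lower (8.58% of all). The genes and lists were chosen with earlier results of these data known. A share above that of all probesets, here or below, is therefore no test of them. The arrays of v-Src and control cells did not overlap for any of the 21 probesets, as for 44.0% of all, and those of STAT3-C and control cells did not overlap for 17, as for 43.4% of all. Both comparisons share the 3 control arrays. In them 5 probesets were higher in both (Pdgfa and Pdgfc at both probesets each, and Vegfa at 1), 9 were lower in both, and 0 went opposite ways. No share over all probesets is given for these joint counts, so they do not set the members apart. Over all probesets, v-Src and STAT3-C arrays correlated at 0.971 to 0.977 with each other, and v-Src and control arrays at 0.943 to 0.948. With 1 probeset for each gene, the median log2 fold change of the 10 genes was 0.68 in v-Src cells, beside 0.02 for all 18193 genes, and -0.03 in STAT3-C cells, beside 0.04 for all genes.

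The promoters of genes that changed in both lines show what sequence lies directly before their transcripts. They are the 250 bases before the most upstream start in the RefSeq table (GRCm38.p6), read 5′ to 3′ on the gene's strand. Capitals mark the GC box GGGCGG on either strand, the core of sites for SP1 and related factors, a motif chosen after these sequences were seen. Pdgfa is shown as the ligand with the highest rise in v-Src cells, Pdgfc as that with the highest rise in STAT3-C cells, Vegfa as a known STAT3 target, and Pdgfra as a receptor that fell.
Pdgfa, chr5:138994945-138995194, - strand: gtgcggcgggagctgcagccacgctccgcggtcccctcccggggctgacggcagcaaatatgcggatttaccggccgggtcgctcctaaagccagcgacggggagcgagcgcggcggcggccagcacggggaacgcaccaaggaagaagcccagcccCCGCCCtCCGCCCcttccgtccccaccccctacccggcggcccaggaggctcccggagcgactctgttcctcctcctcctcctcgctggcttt
Pdgfc, chr3:81036166-81036415, + strand: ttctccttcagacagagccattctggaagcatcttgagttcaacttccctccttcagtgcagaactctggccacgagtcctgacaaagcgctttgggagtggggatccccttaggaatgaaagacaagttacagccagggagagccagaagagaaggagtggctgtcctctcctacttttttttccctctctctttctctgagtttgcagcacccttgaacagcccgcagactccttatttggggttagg
Vegfa, chr17:46032378-46032627, - strand: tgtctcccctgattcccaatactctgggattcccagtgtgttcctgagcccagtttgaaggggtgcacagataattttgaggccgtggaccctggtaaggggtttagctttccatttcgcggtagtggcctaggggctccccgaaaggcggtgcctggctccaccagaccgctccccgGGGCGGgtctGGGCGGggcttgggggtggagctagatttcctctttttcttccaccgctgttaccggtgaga
Pdgfra, chr5:75152001-75152250, + strand: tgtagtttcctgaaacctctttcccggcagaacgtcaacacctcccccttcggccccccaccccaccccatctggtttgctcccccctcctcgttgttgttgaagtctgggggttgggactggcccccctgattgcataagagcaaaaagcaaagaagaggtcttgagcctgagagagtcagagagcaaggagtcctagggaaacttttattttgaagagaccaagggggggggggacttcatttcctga
The Pdgfa and Vegfa promoters held 2 GC boxes each and those of Pdgfc and Pdgfra held 0. Windows of 300 bases, which add 50 bases after the start, were found for 6 of the 10 genes (Vegfa, Vegfb, Vegfc, Pdgfa, Pdgfc and Pdgfra), with 8 windows in all, and not for Angpt1, Angpt2, Pdgfb and Pdgfrb. GGGCGG occurred in 6 of the 8, and in 35.7% of all 32851 windows. The STAT motif TTCNNNGAA, the same on both strands, occurred in 0 of the 8 windows and in 8.30% of all, and the hypoxia response core ACGTG, searched on both strands, in 1, a Vegfa window, and in 19.6% of all. TTCNNNGAA is narrower than the STAT3 consensus that the study used, TT and AA around a spacer of varying length. That looser form was not searched here, so the count of TTCNNNGAA does not cover all candidate sites. A match is no evidence of binding, and its lack says only that these letters are not in the window.

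Pdgfa, which encodes the A chain, had the highest rise of the 10 genes in v-Src cells. At probeset 1449187_at the control arrays read 7.26, 6.78 and 6.52, the STAT3-C arrays 8.41, 8.38 and 8.17, and the v-Src arrays 10.21, 10.66 and 10.41. The 3 lines were fully separated, with v-Src highest and control lowest. Pdgfa rose by 3.57 in v-Src cells (SE 0.20, adjusted p = 3.88e-05), a fold of 11.9 and rank 70 from the highest of all probesets. It rose by 1.47 in STAT3-C cells (SE 0.18, adjusted p = 0.000569), a fold of 2.76. The direct difference of v-Src minus STAT3-C was 2.11 (SE 0.13, adjusted p = 0.000269). The other Pdgfa probeset, 1418711_at, gave 6.89, 6.63 and 7.22 in control, 8.35, 8.44 and 8.87 in STAT3-C, and 10.25, 10.75 and 10.27 in v-Src cells, the same order with no overlap. Its log2 fold changes were 3.51 and 1.64, with a direct difference of 1.87.

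Pdgfc, which encodes the C chain, a ligand secreted with a CUB domain that proteases must remove, showed the opposite order of the transfected lines. At 1449351_s_at the control arrays read 8.76, 8.30 and 8.82, the v-Src arrays 9.36, 9.51 and 9.43, and the STAT3-C arrays 10.47, 10.59 and 10.64. The lines were again fully separated, but STAT3-C was highest. Pdgfc rose by 1.94 in STAT3-C cells (SE 0.15, adjusted p = 5.12e-05), a fold of 3.84, and by 0.81 in v-Src cells (SE 0.14, adjusted p = 0.00552), a fold of 1.75. v-Src minus STAT3-C was -1.13 (SE 0.08, adjusted p = 0.000413). At 1419123_a_at, where control replicate 2 was low (8.39, 7.61 and 8.62 in control, 8.97, 9.09 and 9.13 in v-Src, 10.73, 10.85 and 10.92 in STAT3-C cells), the changes were 2.63 in STAT3-C cells and 0.86 in v-Src cells, with a direct difference of -1.77 (SE 0.09). The v-Src call at this probeset was lost after median centring (0.79, adjusted p = 0.0549) and without v-Src replicate 1, 5 or 6 or control replicate 1 or 2 (0.56 to 0.95).

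Pdgfb encodes the B chain and is the cellular counterpart of the sis oncogene. It lay below the median of each control and STAT3-C array (6.27 to 6.39). In v-Src cells it lay above the array median at 1450414_at and below it at 1450413_at. At 1450414_at it read 5.37, 5.66 and 5.41 in control, 5.87, 5.90 and 6.04 in STAT3-C, and 7.09, 6.47 and 6.87 in v-Src cells. It rose by 1.33 in v-Src cells (SE 0.17, adjusted p = 0.00114), a fold of 2.51. With STAT3-C the lines did not overlap but the log2 fold change of 0.46 (SE 0.11, adjusted p = 0.0147) was under the fold threshold, and the direct difference was 0.87 (SE 0.16, adjusted p = 0.00829). At 1450413_at no comparison was called. There the control arrays read 5.92, 5.84 and 5.64, the STAT3-C arrays 5.85, 5.71 and 5.92, and the v-Src arrays 6.13, 6.27 and 6.22, with log2 fold changes of 0.41 in v-Src cells (adjusted p = 0.018) and 0.03 in STAT3-C cells.

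**Figure D1:**
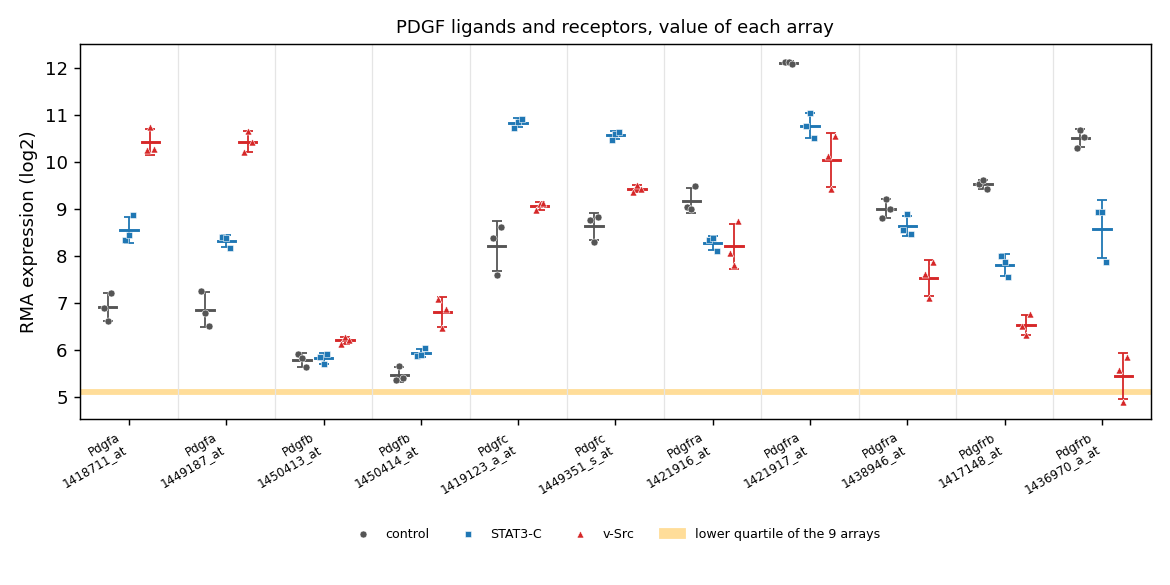
RMA expression (log2, vertical axis) of the 11 PDGF ligand and receptor probesets in each array of control (circles), STAT3-C (squares) and v-Src cells (triangles), with the mean and SD of 3 arrays and the range of the arrays' lower quartiles as a band. Pdgfa is highest in v-Src cells (10.21 to 10.75) and Pdgfc in STAT3-C cells (10.47 to 10.92), while both receptors are highest in control cells. Heights compare within a probeset only.

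Pdgfrb, the receptor for B chains, fell more in v-Src cells than in STAT3-C cells. At 1436970_a_at the control arrays read 10.30, 10.68 and 10.53, the STAT3-C arrays 8.93, 8.93 and 7.87, and the v-Src arrays 5.58, 4.90 and 5.86. STAT3-C replicate 3 lay below its fellows, and v-Src replicate 5 lay below the lower quartile of its array. Pdgfrb fell by 5.06 on the log2 scale in v-Src cells (SE 0.24, adjusted p = 1.85e-05), a fold of 33.3 and rank 31 from the lowest of all probesets. With STAT3-C it fell by 1.93 (SE 0.27, adjusted p = 0.0012), and v-Src minus STAT3-C was -3.13 (SE 0.34, adjusted p = 0.00138), rank 23 from the lowest. As the v-Src level is near background, the sizes and ranks of the v-Src fall and of this difference are limited by it. At 1417148_at, with 9.54, 9.62 and 9.43 in control, 8.004, 7.87 and 7.56 in STAT3-C, and 6.52, 6.33 and 6.76 in v-Src cells, the same order held. Here Pdgfrb fell by 2.99 in v-Src cells (SE 0.12, adjusted p = 9.91e-06) and fell by 1.72 in STAT3-C cells (SE 0.13, adjusted p = 4.94e-05), and the direct difference was -1.27 (SE 0.15, adjusted p = 0.0018).

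Pdgfra, the receptor for A and C chains, was lower in v-Src cells at 3 of 3 probesets and in STAT3-C cells at 2 of 3. At 1421917_at the control arrays read 12.12, 12.12 and 12.07, the STAT3-C arrays 10.77, 11.04 and 10.50, and the v-Src arrays 10.12, 9.41 and 10.55. Both transfected lines lay below all controls, and they overlapped each other. Pdgfra fell by 2.08 in v-Src cells (SE 0.26, adjusted p = 0.00109), a fold of 4.22, and fell by 1.34 in STAT3-C cells (SE 0.14, adjusted p = 0.000226), a fold of 2.53. The direct difference was -0.74 (95% confidence interval -1.39 to -0.09, adjusted p = 0.107) and did not pass, although it did without v-Src replicate 6 (-0.998) and by SAM. At 1438946_at Pdgfra fell by 1.47 in v-Src cells (8.81, 9.21 and 8.995 in control, 7.63, 7.11 and 7.87 in v-Src cells), while the STAT3-C arrays (8.55, 8.88 and 8.47) overlapped the controls with a log2 fold change of -0.37 (SE 0.14, adjusted p = 0.0955). There the direct difference of -1.10 passed (SE 0.20, adjusted p = 0.00889). At 1421916_at the log2 fold changes were -0.98 in v-Src cells and -0.90 in STAT3-C cells, both called. The v-Src call at 1421916_at was lost without v-Src replicate 1 or 5 or control replicate 1 or 3 (-0.78 to -1.04). The probesets thus disagreed on whether Pdgfra differed between the transfected lines.

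PDGF receptors also mark pericytes and smooth muscle cells, and markers of these cells moved too. Of 10 such markers, 3 rose and 3 fell in v-Src cells, and 2 rose and 3 fell in STAT3-C cells, which is 6 and 5 of the 10 beside 19.9% and 22.2% of all genes. Their median log2 fold change was -0.03 in each line. Their summed level (log2 of the sum of linear values) was 12.8 to 13.3 in control, 10.8 to 11.0 in v-Src and 10.2 in STAT3-C cells, a sum carried by Acta2, at 12.9 in control cells where the next, Tagln, was at 8.33. Acta2, smooth muscle actin, had -5.08 in v-Src cells and -5.21 in STAT3-C cells, both called, and Tagln, an actin-binding protein of smooth muscle, had -2.04 and -1.67, both called. Cspg4, the NG2 proteoglycan, which binds PDGF-AA, rose by 2.05 in v-Src cells and had 0.43 in STAT3-C cells. Notch3, a receptor of mural cells, rose by 2.05 and 0.87, and Des, the muscle filament desmin, by 0.94 and 1.05. The pericyte marker Rgs5 stayed near background at 5.22 in control, 5.15 in v-Src and 5.28 in STAT3-C cells. In bulk RNA, fewer cells of a type and less RNA per cell cannot be told apart, and the part of these markers in the receptor values was not tested.

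Vegfa rose in v-Src cells, and less in STAT3-C cells. At 1451959_a_at the control arrays read 8.11, 8.05 and 8.04, the STAT3-C arrays 8.91, 8.81 and 8.64, and the v-Src arrays 9.39, 9.45 and 9.83. The 3 lines did not overlap, in the same order as for Pdgfa. The fold was 2.80 in v-Src cells and 1.65 in STAT3-C cells, and the 95% confidence interval of v-Src minus STAT3-C ran from 0.45 to 1.08 on the log2 scale. At 1420909_at the arrays read 8.46, 8.36 and 8.24, then 8.92, 8.998 and 8.50, then 9.62, 9.37 and 9.90 in the same order of lines. The lines were separated here too, with STAT3-C replicate 3 nearest to the controls, and the fold was 2.41 in v-Src cells and 1.37 in STAT3-C cells, the latter under the threshold. The STAT3-C change at 1420909_at passed without STAT3-C replicate 3 (0.60). The call on its direct difference of 0.82 was lost when STAT3-C replicate 1 (0.88), v-Src replicate 1 (0.82) or v-Src replicate 6 (0.68) was left out.

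Vegfb, a ligand of Flt1 with a role in fatty acid uptake, had a single probeset, 1451803_a_at. It read 8.46, 8.47 and 8.17 in control, 8.31, 8.31 and 8.04 in STAT3-C, and 8.79, 8.82 and 9.18 in v-Src cells. The v-Src arrays lay above all others, and the STAT3-C and control arrays overlapped. The log2 fold change in v-Src cells was 0.56 (SE 0.14, adjusted p = 0.0201), just under the fold threshold, and it passed without v-Src replicate 1 or 5 or control replicate 1 or 2 (0.61 to 0.63). With STAT3-C it was -0.15 (95% confidence interval -0.43 to 0.14). The direct difference of 0.71 was called (SE 0.13, adjusted p = 0.0105) but not without v-Src replicate 6 (0.58).

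Vegfc, the ligand of Flt4, fell in both lines at each of its 3 probesets. At 1419417_at the control arrays read 8.85, 9.58 and 9.20, the v-Src arrays 7.15, 7.08 and 6.80, and the STAT3-C arrays 7.15, 7.01 and 6.56. Both transfected lines lay below the controls and overlapped each other. Vegfc fell by 2.20 in v-Src cells (SE 0.19, adjusted p = 0.000225) and fell by 2.30 in STAT3-C cells (SE 0.21, adjusted p = 0.000132). The direct difference was 0.10 (95% confidence interval -0.29 to 0.49, adjusted p = 0.714). Probeset 1440739_at gave log2 fold changes of -1.98 and -2.18 and a direct difference of 0.20 (95% confidence interval -0.16 to 0.57). Probeset 1439766_x_at, whose suffix marks probes that may bind other transcripts, read 8.72, 9.29 and 9.05 in control, 6.92, 6.42 and 6.32 in v-Src, and 8.19, 8.16 and 7.01 in STAT3-C cells. There the log2 fold changes were -2.47 and -1.23, and v-Src minus STAT3-C was -1.23 (adjusted p = 0.0348), a call that was kept without STAT3-C replicate 3 (-1.62) and lost without any other single array (-1.42 to -1.03). The STAT3-C call at 1439766_x_at was lost without control replicate 2 (-1.10) or 3 (-1.22).

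Angpt1, the agonist of the endothelial receptor Tek that stabilizes vessels, fell in both lines. At 1439066_at the control arrays read 7.96, 7.69 and 7.60, the v-Src arrays 5.92, 5.92 and 5.94, and the STAT3-C arrays 5.01, 5.03 and 5.27. The lines were fully separated with STAT3-C lowest, the reverse of the order for Pdgfrb. Angpt1 fell by 1.83 in v-Src cells (SE 0.10, adjusted p = 4.33e-05), a fold of 3.55, and fell by 2.65 in STAT3-C cells (SE 0.13, adjusted p = 5.62e-06), a fold of 6.27. The direct difference was 0.82 (SE 0.09, adjusted p = 0.00149). As 2 STAT3-C arrays lay below their lower quartiles, the fall in STAT3-C cells and the direct difference are limited by background. At 1421441_at, with 5.78, 5.75 and 6.24 in control, 5.03, 5.21 and 4.82 in v-Src, and 5.02, 4.95 and 5.49 in STAT3-C cells, the log2 fold changes were -0.90 and -0.77 and the direct difference was -0.13 (95% confidence interval -0.51 to 0.25). There 2 v-Src and 2 STAT3-C arrays lay below their lower quartiles, so both falls and the direct difference at 1421441_at are limited by background too. The STAT3-C call at 1421441_at was lost without STAT3-C replicate 1 (-0.71) or 2 (-0.67).

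Angpt2, which opposes Angpt1 at Tek in many settings, was near background in control and STAT3-C cells. At 1448831_at the control arrays read 5.05, 5.09 and 5.13, the STAT3-C arrays 5.04, 5.19 and 5.28, and the v-Src arrays 6.23, 5.73 and 6.01. The v-Src arrays lay above all others. Angpt2 rose by 0.90 in v-Src cells (SE 0.13, adjusted p = 0.00207), and from a background level this is limited in size. With STAT3-C the log2 fold change was 0.08 (95% confidence interval -0.14 to 0.30), and the direct difference was 0.82 (SE 0.14, adjusted p = 0.00649). The other probeset, 1459636_at, lay below the lower quartile in all 9 arrays (4.597 to 4.89) and was called in no comparison.

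**Figure D2:**
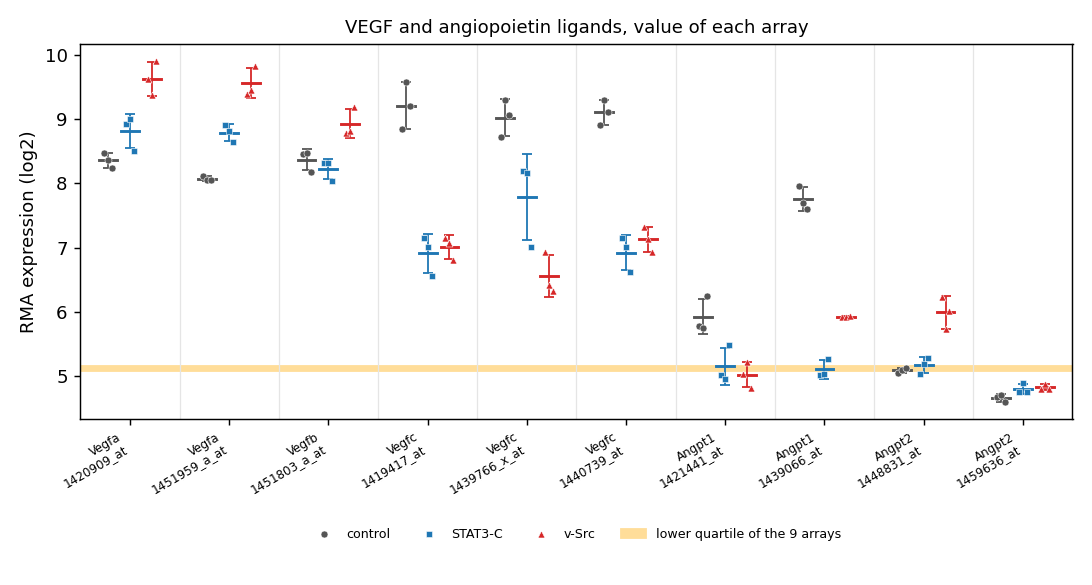
RMA expression (log2, vertical axis) of the 10 VEGF and angiopoietin probesets in each array of control (circles), STAT3-C (squares) and v-Src cells (triangles), with the mean and SD of 3 arrays and the range of the arrays' lower quartiles as a band. Vegfa is above control in both lines, Vegfc and Angpt1 below it, and Angpt2 at 1448831_at is highest in v-Src cells (5.73 to 6.23).

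The transfected lines were also compared directly, without the control arrays. Of the 21 probesets, 14 were called against 10.3% of all, 8 higher in v-Src cells (4.99% of all) and 6 lower (5.33% of all), and 15 did not overlap, as for 37.7% of all. The v-Src cells had more Pdgfa and Vegfa at both probesets, Vegfb, Angpt2 at 1448831_at, Pdgfb at 1450414_at and Angpt1 at 1439066_at. They had less Pdgfc and Pdgfrb at both probesets, Pdgfra at 1438946_at and Vegfc at 1439766_x_at. Of the 14 probesets called in the same direction in both lines against control, 9 also differed between the lines, a count given without its share over all probesets. Pdgfa and Pdgfc, ligands of 1 receptor, thus differed in opposite directions, by 2.11 and -1.13 at 1449187_at and 1449351_s_at.

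**Figure D3:**
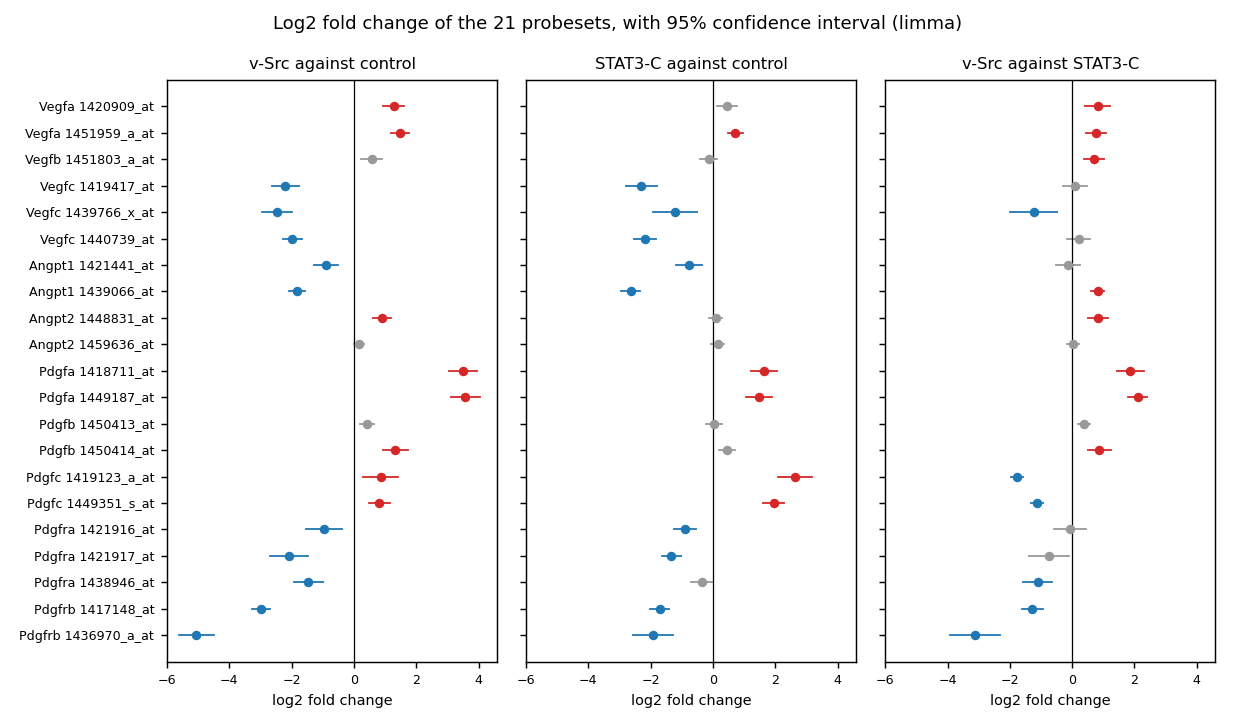
Log2 fold change (horizontal axis) of the 21 probesets in the 3 comparisons, as points with 95% confidence intervals from limma, in red where called higher, blue where called lower and grey where not called. Pdgfa has the highest values in v-Src cells (3.51 and 3.57) and Pdgfrb the lowest (-2.99 and -5.06), and the right panel shows Pdgfa and Pdgfc on opposite sides of 0.

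Of 12 other ligands and receptors of these families, 1 was higher and 3 lower in v-Src cells and 1 higher and 2 lower in STAT3-C cells, with 1 probeset for each gene, and the median log2 fold changes were 0.04 and 0.02, beside 0.02 and 0.04 for all genes. These are 33.3% and 25.0% of the list, beside 19.9% and 22.2% of all genes called, so the STAT3-C share was near that of all genes. Directly compared, 1 was called higher in the v-Src line and 3 lower, or 33.3% beside 11.7% of all genes. Pdgfrl, a secreted protein that resembles the ligand-binding part of PDGF receptors, fell as the receptors did. It read 9.55, 10.4 and 10.1 in control, 6.63, 5.87 and 6.64 in v-Src, and 7.43, 7.95 and 7.34 in STAT3-C cells, without overlap. Pdgfrl fell by 3.65 in v-Src cells (SE 0.28, adjusted p = 0.000134) and fell by 2.46 in STAT3-C cells (SE 0.24, adjusted p = 0.000167), and the direct difference was -1.19 (adjusted p = 0.0144). Pgf, placental growth factor, a ligand of Flt1, rose by 1.13 in STAT3-C cells (SE 0.12, adjusted p = 0.000265), and its change of 0.30 in v-Src cells was under the fold threshold. The direct difference for Pgf was -0.84 (adjusted p = 0.00405), the same direction as for Pdgfc.

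Neuropilins, co-receptors that bind VEGF beside Flt1 and Kdr, fell at most of their probesets. Nrp1 at 1448943_at read 10.7, 10.5 and 10.5 in control, 10.3, 10.3 and 10.3 in STAT3-C, and 8.23, 8.85 and 8.94 in v-Src cells, so that v-Src stood apart. It fell by 1.89 in v-Src cells (SE 0.18, adjusted p = 0.000375) and had -0.24 in STAT3-C cells (SE 0.09, adjusted p = 0.0824). Its probesets 1418084_at and 1448944_at fell with both (-1.64 and -1.75 in v-Src cells, -1.04 and -1.26 in STAT3-C cells), and 1457198_at was not called. Nrp2 at 1435349_at was called in no comparison, with 0.14 and -0.19, but its other 3 probesets fell in both lines, with log2 fold changes of -1.33 to -0.68 and -1.72 to -1.05. The choice of probeset therefore decides the counts for both neuropilins.

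Flt1, the receptor that binds Vegfa, Vegfb and Pgf, was higher in v-Src cells at 3 of 4 probesets, by 0.71 to 1.91. At 1419300_at it lay near background in control cells (5.08) and rose to 6.996 in v-Src cells, by 1.91 (SE 0.17, adjusted p = 0.000275), and to 5.68 in STAT3-C cells, by 0.60 (SE 0.13, adjusted p = 0.01). The direct difference at 1419300_at was 1.32 (adjusted p = 0.00352). Kdr, the main signaling receptor for Vegfa in endothelium, and Flt4 were called in no comparison, with log2 fold changes of 0.18 and 0.10 in v-Src cells and -0.00079 and 0.09 in STAT3-C cells. These are of Flt4 probeset 1444052_at, and 1421442_at had 0.24 and 0.14. Tek (4.52 in control, 4.5995 in v-Src and 4.68 in STAT3-C cells) and Tie1 (4.55, 4.56 and 4.75) lay below the lower quartile of control arrays. Pdgfd, a ligand of Pdgfrb, and Angpt4 were called in no comparison, with -0.31 and -0.17 in v-Src cells and -0.46 and 0.05 in STAT3-C cells. These are of 1446691_at and 1450325_at. Angpt4 at 1455427_at had -0.18 and -0.30. Pdgfd at 1426319_at and 1456532_at had line means of 3.35 to 3.90, below the lower quartile, so changes there are limited by background.

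Vegfd, a ligand of Flt4, gave opposite answers in STAT3-C cells depending on the probeset. At 1449528_at it read 11.0, 10.9 and 10.7 in control, 9.77, 9.77 and 10.3 in v-Src, and 9.33, 9.27 and 9.24 in STAT3-C cells, without overlap between lines. Vegfd fell there by 0.94 in v-Src cells (SE 0.16) and fell by 1.59 in STAT3-C cells (SE 0.11, adjusted p = 3.07e-05). At 1438953_at and 1438954_x_at it also fell in v-Src cells (-0.97 and -0.90) but rose in STAT3-C cells, by 1.15 and 1.04 (adjusted p = 0.00101 and 0.00707). The direct difference was 0.65 at the first probeset and -2.11 and -1.94 at the others, all called.

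**Figure D4:**
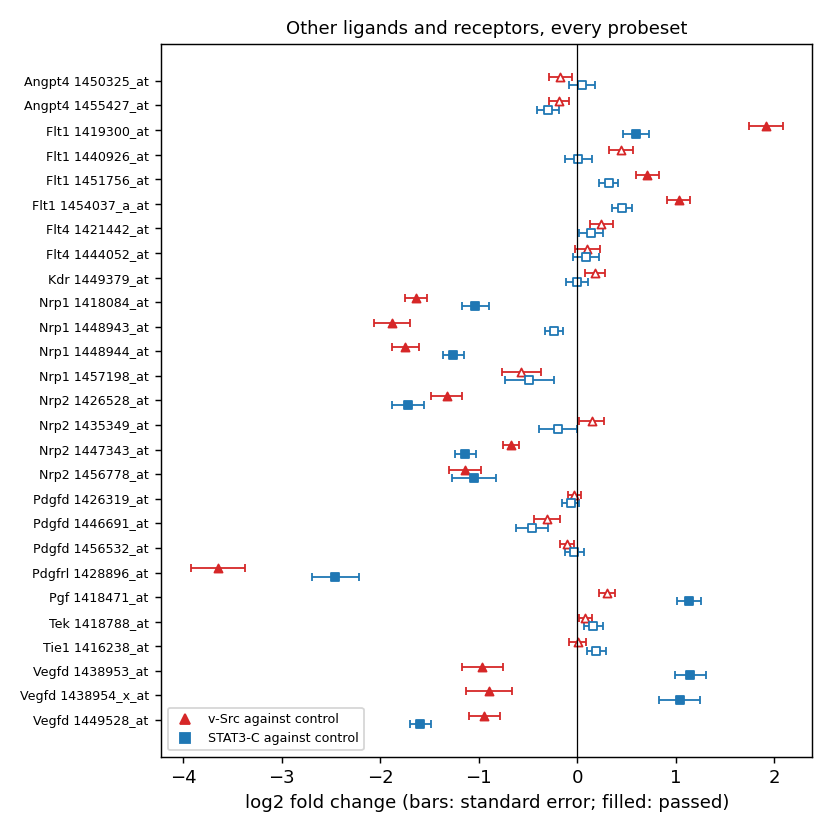
Log2 fold change against control (horizontal axis) of every probeset of 12 other ligands and receptors in v-Src cells (triangles) and STAT3-C (squares), with limma standard errors as bars and filled symbols where the probeset was called. Pdgfrl is lowest in both lines (-3.65 and -2.46), Flt1 at 1419300_at is highest in v-Src cells (1.91), and Vegfd probesets lie on both sides of 0 in STAT3-C cells.

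Of 15 measured genes that process or bind these ligands, 1 was higher and 1 lower in v-Src cells and 2 were higher and 2 lower in STAT3-C cells. With 13.3% and 26.7% called, beside 19.9% and 22.2% of all genes, the list did not stand out from the background. The v-Src count of 2 became 4 without v-Src replicate 5 or 6. Thbs1, thrombospondin-1, a matrix protein that binds growth factors and restrains vessel growth, had -2.44 in v-Src cells (SE 0.22) and -2.999 in STAT3-C cells (SE 0.19), both called. Plau, the urokinase plasminogen activator, rose by 1.04 (SE 0.13) and 1.96 (SE 0.17). Lrp1, a scavenger receptor that associates with Pdgfrb, fell by 1.20 in STAT3-C cells (SE 0.19), and Ctgf, a matricellular protein that binds VEGFA, rose by 0.98 (SE 0.28). With v-Src these had -0.54 and 0.71 and were not called.

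Of 24 genes that act next to the receptors in the cell, 6 were higher and 3 lower in each line against control, 37.5% of the list, beside 19.9% of all genes in v-Src cells and 22.2% in STAT3-C cells. Directly compared, 2 of them were called higher in the v-Src line and 2 lower, beside 11.7% of all genes called. Grb10, which docks on activated growth factor receptors and restrains insulin signaling, rose by 4.58 in v-Src cells (SE 0.10) and 4.79 in STAT3-C cells (SE 0.12). Shb, an adapter that binds activated PDGF and VEGF receptors, rose by 1.998 and 1.65, and Pik3r1, the regulatory subunit of phosphatidylinositol 3-kinase, fell (-1.62 and -2.26). Nck2, an adapter to the actin cytoskeleton, rose by 1.41 in v-Src cells (adjusted p = 0.00102) and had 0.56 in STAT3-C cells. Sos2, an exchange factor for Ras, rose by 1.43 in STAT3-C cells and by 0.80 in v-Src cells.

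The genes most similar in pattern were found among 2658 genes whose line means span at least 1, by Pearson correlation over the 9 arrays, which fall into 3 lines. For Vegfa (1420909_at) they were Fn1, which encodes fibronectin, Itpr3, a calcium channel, and Kctd10 (r of 0.992, 0.991 and 0.990). For Pdgfra (1421917_at) they were Slc4a4, a bicarbonate transporter, Stx6, a membrane fusion protein, and Magee1 (0.995, 0.989 and 0.985). For Pdgfrb (1436970_a_at) they were Prkaca, a catalytic subunit of protein kinase A, Cirbp, a cold-inducible RNA-binding protein, and Ngly1, which removes sugar chains from proteins (0.989, 0.989 and 0.987).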

How the data were processed

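The authors hybridized RNA of each passage to Affymetrix mouse arrays and normalized them with RMA before they deposited the log2 values. By the methods, RMA was run separately for each transfected line, both times together with the control arrays. Which run the deposited control columns hold is not given in the sources used here. Some deposited values are identical across lines, such as 5.92016 for Pdgfb at 1450413_at in control replicate 1 and STAT3-C replicate 3. Whether the deposited columns come from 1 joint run was not tested. The values were used as deposited. Arrays hold no read depth, and their number limits the precision.

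Groups were taken from sample titles. The 64 control probesets were left out. The 6 arrays of each comparison were fitted in R 4.3.3 with limma 3.58.1 (lmFit and eBayes), with Benjamini-Hochberg adjustment over 45037 probesets. Figures were drawn with matplotlib 3.10.9. Symbols came from the platform annotation (34945 probesets with 1 symbol, 932 with several, 9160 with none), and promoters from RefSeq (GRCm38.p6). In counts over genes the probeset with the highest mean over 9 arrays stood for a gene.

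The 10 genes and all lists were chosen with earlier results of these data known. Named were all member probesets, all of the 12 other ligands and receptors, up to 4 genes of the processing and signaling lists with the highest absolute change in each line, called there, and the 3 genes most correlated with each of Vegfa, Pdgfra and Pdgfrb. Cell type markers and Stat3 and Src served as checks. The test was tried on simulated data. Alternatives were all 9 arrays in 1 fit, quantile normalization, median centring, a level filter, other thresholds, SAM (the test of the methods, over 20 groupings), moderation with a robust intensity trend, single arrays left out, the replicate number as a block, and the mean of probesets.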

Additional observations from a re-analysis of the deposited data

Results flagged for a closer look

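By the direct limma test of v-Src minus STAT3-C cells over 45037 probesets, the effect against control differed between the lines at 14 of the 21 probesets. Of all probesets 10.3% were called, and the members were chosen with earlier results of these data known. The log2 differences were 1.87 (1418711_at) and 2.11 (1449187_at) for Pdgfa, -1.77 (1419123_a_at) and -1.13 (1449351_s_at) for Pdgfc, and 0.87 (1450414_at) for Pdgfb. For the receptors they were -1.27 (1417148_at) and -3.13 (1436970_a_at) for Pdgfrb and -1.10 (1438946_at) for Pdgfra. For the vessel growth factors they were 0.82 (1420909_at) and 0.77 (1451959_a_at) for Vegfa, 0.71 for Vegfb, -1.23 (1439766_x_at) for Vegfc, 0.82 (1439066_at) for Angpt1 and 0.82 (1448831_at) for Angpt2. By the methods the lines were normalized in separate runs, and if so, run and line cannot be told apart. Some deposited values are identical across lines, such as 7.14898 for Vegfc at 1419417_at in v-Src replicate 1 and STAT3-C replicate 1. Whether the deposited values come from 1 joint run was not tested.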

How the results depend on the processing

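Of single probeset results under the alternatives, 887 kept their direction and their side of the threshold, 44 lost the call, 12 gained it and 7 changed sign, none of the 7 called. Pdgfb at 1450413_at in STAT3-C cells against control became -0.0168 after median centring, and ranged from -0.0524 (without control replicate 3) to 0.0897 when 1 array was left out. The direct difference ranged with 1 array left out from -0.0722 to 0.221 for Vegfc at 1419417_at, from -0.230 to 0.0380 for Angpt1 at 1421441_at, from -0.00423 to 0.0692 for Angpt2 at 1459636_at, and from -0.344 to 0.117 for Pdgfra at 1421916_at. The cause was not tested.

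The member probesets called higher with v-Src went from 8 to 5 at a fold of at least 2. Those higher in the direct comparison went from 8 to 2 at that fold. In either direction, 13 of 21 were called at that fold with v-Src and 8 of 21 directly. Of all probesets, 7.79% and 3.32% were called at that fold. In the direct comparison, 5 of the 15 probesets above the median level were higher. Above that level 27.4% of all probesets were called with v-Src, 30.3% with STAT3-C and 17.7% directly, beside 15 of 16, 13 of 16 and 11 of 15 member probesets. With 1 array left out the counts ran from 7 to 8 higher and 9 to 10 lower with v-Src, 5 to 6 and 8 to 9 with STAT3-C, and 6 to 8 and 5 to 6 directly.

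The list counts under alternatives were added after seeing the data. At a fold of at least 2, other ligands and receptors went from 4 to 2 with v-Src and from 4 to 2 directly, ligand processing from 3 to 0 directly, and receptor-proximal genes from 9 to 4 with v-Src, 9 to 5 with STAT3-C and 4 to 0 directly. The share of all probesets called also fell at that fold, to 7.79% with v-Src, 8.24% with STAT3-C and 3.32% directly. With no fold threshold receptor-proximal genes numbered 14 with STAT3-C and 10 directly, beside 29.6% and 20.3% of all probesets. At an adjusted p under 0.01 the direct counts were 2 other ligands and receptors and 1 ligand processing gene, beside 7.09% of all probesets. By SAM, ligand processing gave 4 with v-Src, as after median centring, and 5 directly. With 1 array left out, ligand processing ran from 2 to 4 with v-Src and from 1 to 6 directly (6 without v-Src replicate 5), other ligands from 2 to 4 and receptor-proximal genes from 2 to 6 directly.

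STAT3-C and control arrays share replicate numbers. Deviations of same-numbered arrays correlated at -0.0926, 0.0645 and 0.0446, and those of differently numbered arrays at -0.110 to 0.0715. No pairing was seen by this measure, and a weak shared effect was not tested. With the replicate number as a block 5 member probesets were higher and 9 lower, the same counts. v-Src shares number 1 alone with control, so no block was fitted there. With 3 arrays a line, levels near the lower quartile limit the v-Src fall of Pdgfrb at 1436970_a_at. They also limit the falls of Angpt1 in both lines at 1421441_at and in STAT3-C cells at 1439066_at. For Angpt2 they limit all values at 1459636_at, and at 1448831_at the changes from the control and STAT3-C levels.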
